A study of Homo sapiens with 12 samples.

Results

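The 10 genes described here are the transcription factor gene NFE2L2, which encodes NRF2, its inhibitor gene KEAP1, and 8 genes of the antioxidant program that NRF2 is known to drive, namely NQO1, HMOX1, GCLC, GCLM, TXNRD1, SRXN1, SLC7A11 and AKR1B10. They were picked by gene symbol, and each of the 10 matched exactly 1 of the 48114 genes listed in the expression tables. PolyA-selected RNA was sequenced from 2 human PDAC (pancreatic ductal adenocarcinoma) cell lines, as 150 bp read pairs. PANC-1, which the study uses as a basal-like line, received a control siRNA (siCtrl), siRNAs against the RNA-binding protein QKI (siQKI) or siRNAs against the RNA-binding protein RBFOX2 (siRBFOX2). HPAF-II, which the study uses as a classical line, received siCtrl alone. PANC-1 cells were collected after 48 h, and the labels give siCtrl for the same time in HPAF-II, whose transfection the study's methods do not describe. Each group has 3 libraries that the submitters call biological replicates, and the knockdown siRNAs were used at 40 nM. All PANC-1 groups are 1 cell line, so the replicates measure the spread between cultures of that line and not between tumors.

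NRF2 is a transcription factor that, in unstressed cells, is held by KEAP1 and handed to a CUL3 ubiquitin ligase for degradation. Electrophiles and oxidants modify KEAP1, NRF2 then accumulates, pairs with a small MAF protein and binds antioxidant response elements in its target genes, while BACH1 competes for the same sites and is best known for repressing HMOX1. Because this control acts on the protein, the mRNA level of NFE2L2 does not report how much active NRF2 a cell holds. In pancreatic cancer the pathway is known for supporting glutathione synthesis and redox balance.

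The antioxidant response element core was searched in the promoters of the 10 genes, since most of them are described as targets through that element. RefSeq (GRCh38.p14) promoter windows, running from 250 bases before to 50 bases after a transcription start, were at hand for 7 of the 10 genes (NFE2L2, KEAP1, NQO1, GCLC, GCLM, TXNRD1 and SRXN1, 10 windows). The core was spelled TGACNNNGC, with N any base, and both strands were read. It was present in 4 of the 10 windows and in 3 of the 7 genes, GCLM, TXNRD1 and KEAP1. Of all 35116 promoter windows 13.3% held it, and of all 27305 genes 16.1%. Among the other genes of the pathway that are listed further on, 16 of 55 did (29.1%). The windows of GCLM and TXNRD1 are shown because these genes moved in opposite directions in the 2 knockdowns, and the KEAP1 window because KEAP1 holds the element while no change passed the test. Each is written 5′ to 3′ in the direction of the gene, with the matching bases in capitals.
GCLM, chr1:93909381-93909680, minus strand: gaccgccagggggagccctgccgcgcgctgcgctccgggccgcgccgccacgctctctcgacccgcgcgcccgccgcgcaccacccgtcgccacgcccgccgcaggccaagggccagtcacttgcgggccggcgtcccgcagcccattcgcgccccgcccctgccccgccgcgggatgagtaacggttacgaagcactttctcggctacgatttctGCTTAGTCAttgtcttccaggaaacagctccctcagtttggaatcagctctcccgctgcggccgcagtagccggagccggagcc
TXNRD1, chr12:104215529-104215828, plus strand: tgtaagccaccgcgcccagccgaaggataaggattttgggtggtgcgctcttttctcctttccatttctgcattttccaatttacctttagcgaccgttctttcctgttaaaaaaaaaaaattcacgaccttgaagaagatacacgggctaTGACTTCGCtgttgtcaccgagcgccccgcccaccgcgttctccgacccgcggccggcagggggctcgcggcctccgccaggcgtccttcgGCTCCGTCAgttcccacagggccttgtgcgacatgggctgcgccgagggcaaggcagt
TXNRD1, second start, chr12:104286782-104287081, plus strand: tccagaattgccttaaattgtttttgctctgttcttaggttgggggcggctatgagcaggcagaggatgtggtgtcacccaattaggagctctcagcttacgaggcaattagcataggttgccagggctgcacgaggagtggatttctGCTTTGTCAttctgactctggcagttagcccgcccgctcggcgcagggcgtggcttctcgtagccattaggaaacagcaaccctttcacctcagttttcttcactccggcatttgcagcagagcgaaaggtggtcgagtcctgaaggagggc
KEAP1, chr19:10502722-10503021, minus strand: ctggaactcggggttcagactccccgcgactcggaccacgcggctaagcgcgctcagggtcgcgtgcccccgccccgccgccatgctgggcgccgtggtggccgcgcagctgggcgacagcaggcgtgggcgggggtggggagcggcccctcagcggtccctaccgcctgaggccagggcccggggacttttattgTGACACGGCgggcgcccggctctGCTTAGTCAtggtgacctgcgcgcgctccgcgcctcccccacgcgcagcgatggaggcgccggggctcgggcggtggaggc
The GCLM match begins 34 bases before the start and reads TGACTAAGC on the opposite strand, and the same 9 letters begin 31 bases before the start in KEAP1. KEAP1 also held TGACACGGC, 54 bases before the start. The first TXNRD1 window held TGACTTCGC at 99 bases and TGACGGAGC, on the opposite strand, at 8 bases before the start. The second held TGACAAAGC, on the opposite strand, at 102 bases before the start. None of these matches overlapped the AP-1 site TGACTCA or TGAGTCA, which was found in none of the 10 windows. The windows of NFE2L2, NQO1, GCLC and SRXN1 do not hold these letters, which says nothing about sites outside them.

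The deposited values, called normalized counts here, are counts per gene after division by the authors' DESeq2 size factors, which were estimated for each cell line on its own. The size factors were inferred from the even spacing of the values within each library. So read, they ran from 0.877 to 1.15 in PANC-1 and from 0.810 to 1.09 in HPAF-II. The number of sequenced fragments behind a value is unknown. QKI was left at 19.7% of its siCtrl mean in siQKI libraries and RBFOX2 at 13.6% in siRBFOX2 libraries, so each targeted gene was low where the labels place its knockdown. RBFOX2 also fell in siQKI libraries, to 81.9% of siCtrl (limma adjusted p = 0.0207), a call lost without siCtrl replicate 2 or 3 or siQKI replicate 1 or 3 (adjusted p = 0.0508 to 0.0585). RBFOX2 was at 12520 to 12778 normalized counts in siQKI beside 15355 to 15508 in siCtrl. The test shares its estimate of the spread with the siRBFOX2 libraries, at 1712 to 2403. Over 18 alternatives the limma adjusted p ran from 1.06e-04 to 0.114. The epithelial markers (EPCAM, CDH1 and 4 keratins) were present in both lines, but all 6 were higher in HPAF-II, from 2.11-fold (KRT18) to 208-fold (KRT7). Their summed level per 1000000 was 2550.1 to 2643 in PANC-1 siCtrl libraries and 10943 to 11850 in HPAF-II. The classical markers GATA6, TFF1, LYZ and AGR2 summed to 226 to 261 in PANC-1 siCtrl and 1639 to 1832 in HPAF-II. TFF1 was low in both lines, with overlapping libraries. The mesenchymal markers VIM, ZEB1, FN1 and CDH2 had a summed level per 1000000 of 5376 to 5567 in PANC-1 siCtrl libraries, and in HPAF-II of 1.21 to 16.4, where CDH2 was at 0 and the highest sum, in replicate 1, came from VIM (15.2). The leukocyte genes PTPRC and CD3E were at 0 in all PANC-1 siCtrl libraries, and CD68 and CD79A were not. Since these are bulk samples, fewer cells expressing a gene and less RNA per cell cannot be told apart.

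Markers of cell type also moved with the knockdowns. CDH1, which encodes E-cadherin, rose from 987 ± 16.3 normalized counts in siCtrl to 2610 ± 382 in siQKI and 1431 ± 107 in siRBFOX2 (SD, n = 3, adjusted p = 1.54e-07 and 0.00177). KRT18 fell in both knockdowns, and KRT8 and KRT19 fell in siRBFOX2. The summed epithelial level per 1000000 was 2550.1 to 2643 in siCtrl, 2558 to 2715 in siQKI and 2133 to 2290 in siRBFOX2. That of the classical markers was 226 to 261 in siCtrl, 356 to 381 in siQKI and 263 to 291 in siRBFOX2. Nearly all of that sum was AGR2, at 224 to 259 in siCtrl, 354 to 379 in siQKI and 262 to 289 in siRBFOX2. Of the 4 classical markers 1 rose in siQKI, and none passed the test in siRBFOX2. Of the mesenchymal markers VIM and ZEB1 fell and CDH2 rose in siQKI, and CDH2 rose in siRBFOX2, with summed levels of 5376 to 5567 in siCtrl, 5138 to 5293 in siQKI and 5492 to 5542 in siRBFOX2. CD68 and CD79A fell in both knockdowns, the sum of the 4 leukocyte genes being 145 to 169 in siCtrl, 116 to 118 in siQKI and 126 to 134 in siRBFOX2. The fibroblast genes COL1A1 and PDGFRB rose in both, with sums over 4 genes of 11.7 to 13.4 in siCtrl, 25.2 to 28.7 in siQKI and 14.96 to 22.6 in siRBFOX2, and LUM and DCN were at 0 in the siCtrl libraries. The part of these shifts in the antioxidant results was not tested.

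Both knockdowns are set against the same 3 siCtrl libraries, to ask whether loss of either splicing factor was followed by a change in the antioxidant genes. In siRBFOX2 cells 8 of the 10 genes rose and none fell, led by SLC7A11 and HMOX1. In siQKI cells the genes split, with 3 that rose (SLC7A11, NQO1 and NFE2L2), 2 that fell (TXNRD1 and GCLM) and 5 that did not pass the test. These counts use limma across 22544 genes with Benjamini-Hochberg adjusted p under 0.05. Over all genes tested, 33% passed in siQKI (14.9% higher and 18.1% lower) and 26.5% in siRBFOX2 (12% higher and 14.5% lower), so the share of the 10 genes that fell in siQKI was close to the background, the shares that rose (3 of 10) or passed at all (5 of 10) in siQKI were above it by few genes, and the share that rose in siRBFOX2 was above it. The median log2 fold change of the 10 genes was -0.02 in siQKI, beside 0.03 for all genes tested, and 0.40 in siRBFOX2, beside 0.01. The split of all called genes depends on the scaling, since 45.2% of siQKI calls and 45.3% of siRBFOX2 calls were higher with the authors' size factors and 57.7% and 60.1% when libraries were set to the same total. The siRBFOX2 count of the 10 genes was 8 under that scaling too, and the siQKI count was 4. The background also depends on level. In a fit limited to genes with a mean of at least 50, 7593 genes passed in siQKI and 6180 in siRBFOX2. Fewer genes were tested there, so the shares over all genes were larger than those above. The counts of the 10 genes stayed at 5 and 8.

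**Figure D1:**
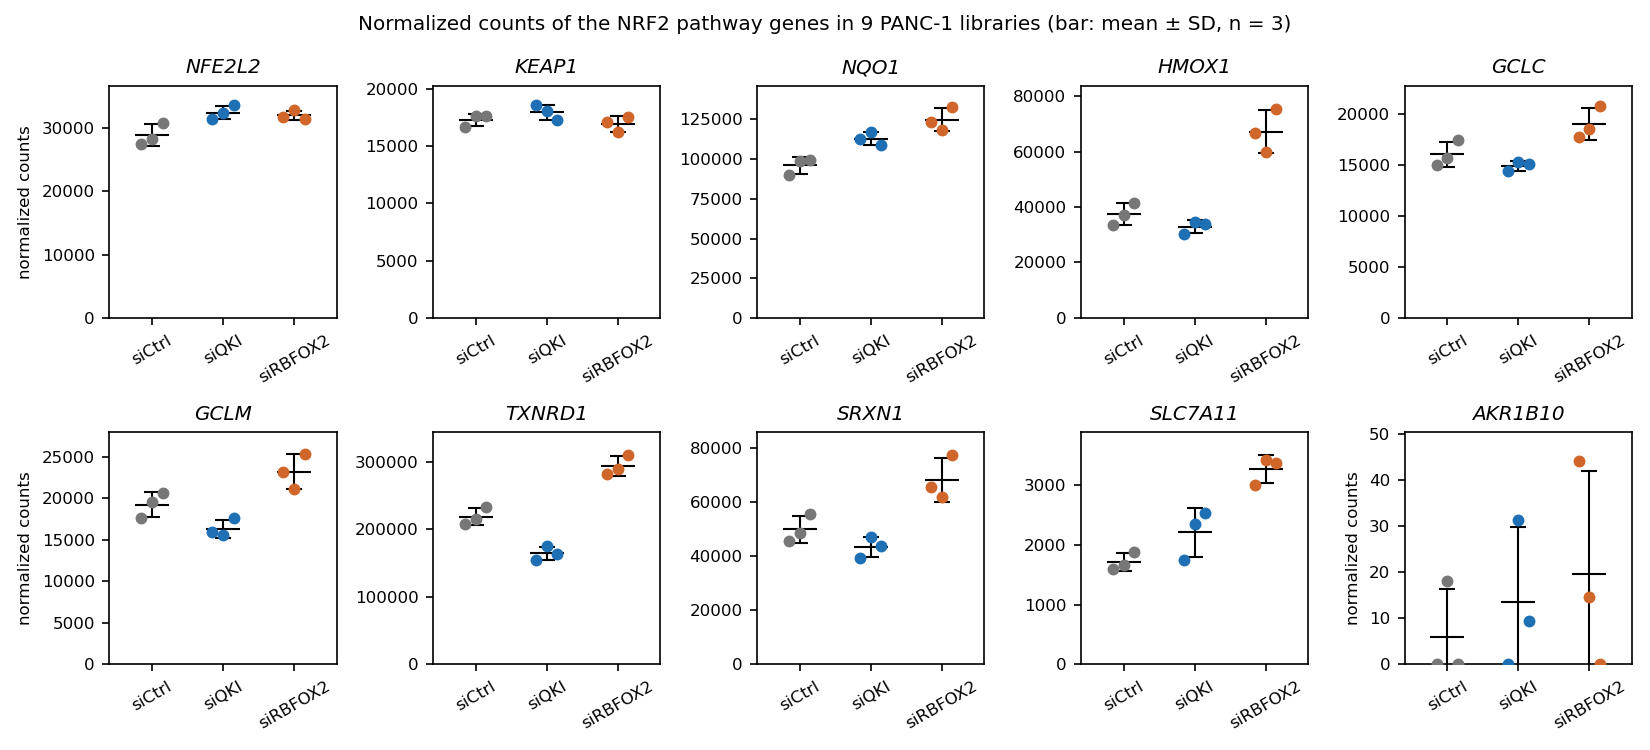
Normalized counts of the 10 genes in the 9 PANC-1 libraries, 1 panel per gene with the group on the x axis and normalized counts on the y axis; points are libraries and the bars give the mean and SD of 3. HMOX1, TXNRD1, SRXN1 and SLC7A11 are highest in the 3 siRBFOX2 libraries, and TXNRD1 is lowest in the 3 siQKI libraries.

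NFE2L2 (GSHG0026126, hg38 chromosome 2, 177230303 to 177265132) encodes the pathway's transcription factor. It was at 27438, 28348 and 30823 normalized counts in siCtrl replicates 1 to 3, at 31475, 32352 and 33640 in siQKI and at 31727, 32911 and 31491 in siRBFOX2. All 6 knockdown libraries lay above the 3 controls, although the step is small. Libraries that do not overlap were common, at 44.7% of all genes tested in siQKI (21.6% higher and 23% lower) and 37.9% in siRBFOX2 (18.2% higher and 19.7% lower). The log2 fold change was 0.17 in siQKI (SE 0.0466, limma adjusted p = 0.00997) and 0.15 in siRBFOX2 (SE 0.0466, adjusted p = 0.0247). The siQKI call was lost without siCtrl replicate 1 (adjusted p = 0.0519) or siQKI replicate 3 (0.0543), and the siRBFOX2 call without siCtrl replicate 1 (0.112), siCtrl replicate 2 (0.0821), siRBFOX2 replicate 1 (0.0507) or siRBFOX2 replicate 2 (0.0819). NFE2L2 spans the microRNA gene MIR3128, and an annotated antisense transcript, AC079305.1, overlaps its start. Whether the counting used strand is not given in the sources used here.

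KEAP1 (GSHG0022363, chromosome 19, 10486120 to 10503567) encodes the adaptor that brings NRF2 to its ubiquitin ligase. Its values were 16703, 17606 and 17636 in siCtrl, 18575, 18089 and 17272 in siQKI and 17122, 16203 and 17587 in siRBFOX2. The 3 groups overlap. The log2 fold change was 0.05 in siQKI (95% confidence interval -0.05 to 0.15, adjusted p = 0.428) and -0.03 in siRBFOX2 (-0.13 to 0.07, adjusted p = 0.710). The ratio of NFE2L2 to KEAP1 counts within a library, which no scaling can alter, averaged 1.67 ± 0.0719 in siCtrl, 1.81 ± 0.128 in siQKI and 1.89 ± 0.125 in siRBFOX2 (SD, n = 3).

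NQO1 (GSHG0017387, chromosome 16, 69709401 to 69726564), a reductase that turns quinones into hydroquinones without a radical intermediate, is the most used readout of NRF2 activity. Its counts were 89855, 98690 and 99538 in siCtrl, 112692, 116864 and 109011 in siQKI and 123110, 118663 and 133087 in siRBFOX2. Every knockdown library exceeded every control. NQO1 rose by 0.23 on the log2 scale in siQKI (SE 0.0497, 1.18-fold, adjusted p = 0.00181) and by 0.38 in siRBFOX2 (SE 0.0497, 1.30-fold, adjusted p = 4.86e-05).

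HMOX1 (GSHG0028588, chromosome 22, 35380437 to 35394207) encodes haem oxygenase 1, which opens haem to biliverdin, iron and carbon monoxide. It was counted at 33466, 37213 and 41455 in siCtrl and at 30164, 34609 and 33770 in siQKI, groups that overlap. In siRBFOX2 it reached 66701, 59774 and 75253, so that the lowest of these libraries was far above the highest control. The rise in siRBFOX2 was 0.85 on the log2 scale (SE 0.0824, 1.80-fold, adjusted p = 2.91e-06), and in siQKI the log2 fold change was -0.18 (adjusted p = 0.106). The siQKI difference passed the test without siCtrl replicate 1 (adjusted p = 0.0292). HMOX2, the constitutive haem oxygenase, served as a reference within the same library. It was at 8792 to 9142 counts in siCtrl, 8055 to 9168 in siQKI and 9671 to 10823 in siRBFOX2. The reference was thus itself higher in siRBFOX2, without overlap. The ratio of HMOX1 to HMOX2 was 4.15 ± 0.447 in siCtrl, 3.82 ± 0.506 in siQKI and 6.53 ± 0.392 in siRBFOX2 (SD, n = 3).

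GCLC and GCLM form glutamate-cysteine ligase, whose reaction limits the rate of glutathione synthesis, with GCLC as the catalytic and GCLM as the modifier subunit. GCLC (GSHG0038091, chromosome 6, 53497341 to 53545101) was at 15026, 15715 and 17429 in siCtrl, 14417, 15319 and 15068 in siQKI and 17805, 18535 and 20768 in siRBFOX2. GCLM (GSHG0002673, chromosome 1, 93885199 to 93909598) was at 17558, 19526 and 20587 in siCtrl, 15871, 15539.8 and 17546 in siQKI and 23098, 21082 and 25319 in siRBFOX2. For GCLM the siQKI libraries were all below and the siRBFOX2 libraries all above the controls, the closest pair being 17546 against 17558. GCLM fell by 0.24 on the log2 scale in siQKI (SE 0.0706, adjusted p = 0.0179) and rose by 0.27 in siRBFOX2 (SE 0.0706, adjusted p = 0.0105). GCLC rose by 0.25 in siRBFOX2 (SE 0.0626, adjusted p = 0.00868), and its log2 fold change of -0.10 in siQKI did not pass (adjusted p = 0.246, overlapping groups). The siQKI call of GCLM was fragile, being lost without siCtrl replicate 2 (adjusted p = 0.0561), siCtrl replicate 3 (0.0906), siQKI replicate 1 (0.0601) or siQKI replicate 2 (0.0797) and at equal totals (0.0523). Its siRBFOX2 call was lost without siCtrl replicate 1 (0.0553) or siRBFOX2 replicate 3 (0.0526).

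SLC7A11 (GSHG0033796, chromosome 4, 138164096 to 138242349) encodes xCT, the transporter chain that imports cystine for glutathione synthesis in exchange for glutamate. It was at 1598, 1670.07 and 1874 counts in siCtrl, 1754, 2347 and 2534 in siQKI and 3005, 3428 and 3372 in siRBFOX2. The siRBFOX2 libraries stood apart from all others, while siQKI replicate 1 lay within the control range. SLC7A11 rose by 0.93 on the log2 scale in siRBFOX2 (SE 0.119, 1.91-fold, adjusted p = 3.81e-05) and by 0.35 in siQKI (SE 0.119, 1.28-fold, adjusted p = 0.0322). The siQKI call was lost without siCtrl replicate 1 (adjusted p = 0.107), siCtrl replicate 2 (0.0831), siQKI replicate 2 (0.118) or siQKI replicate 3 (0.160). An antisense gene, SLC7A11-AS1, overlaps it and had a mean of 10.2 counts. SLC7A11 is also known to be switched on by ATF4 in the integrated stress response, and 6 of 6 markers of that response (ATF4, DDIT3, ASNS, TRIB3, CHAC1 and SESN2) rose in siRBFOX2, while in siQKI 1 rose (ASNS) and 1 fell (SESN2). Of all genes tested 12% rose in siRBFOX2, and 14.9% rose and 18.1% fell in siQKI, so the siQKI counts are near the background. The summed level of these 6 markers was 532 to 579 per 1000000 in siCtrl, 610 to 630 in siQKI and 665 to 752 in siRBFOX2. The part of this response in the SLC7A11 result was not tested.

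TXNRD1 (GSHG0009375, chromosome 12, 104212703 to 104350307), the cytosolic selenoprotein that uses NADPH to reduce thioredoxin, had the highest level per kilobase of exon among the 10 genes in PANC-1 siCtrl cells. The siCtrl libraries held 208387, 215319 and 232652 counts, the siQKI libraries 154630, 174624 and 163894, and the siRBFOX2 libraries 281522, 289338 and 310201. The 3 groups do not overlap, with siQKI lowest and siRBFOX2 highest. TXNRD1 fell by 0.41 on the log2 scale in siQKI (SE 0.0525, adjusted p = 2.15e-05), to 75.1% of the control mean, and rose by 0.43 in siRBFOX2 (SE 0.0525, adjusted p = 2.83e-05), to 134% of it. Its ratio to TXN, the thioredoxin it reduces, was 1.46 ± 0.127 in siCtrl, 1.003 ± 0.0664 in siQKI and 1.66 ± 0.198 in siRBFOX2 (SD, n = 3). The TXNRD1 span holds EID3 (mean 2926 counts) and the locus GSHG0025300 (mean 43930 counts), which lies over the processed pseudogene RPL18AP3, and how reads were divided among them is not given in the sources used here.

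SRXN1 (GSHG0027070, chromosome 20, 646616 to 653246) encodes sulfiredoxin, which restores overoxidised peroxiredoxins. It was at 45560, 48539.9 and 55443 in siCtrl, 39348, 47004 and 43543 in siQKI and 65508, 61725 and 77300.3 in siRBFOX2. The siRBFOX2 libraries were again above all others, and the siQKI and control libraries overlapped. SRXN1 rose by 0.45 on the log2 scale in siRBFOX2 (SE 0.0839, 1.37-fold, adjusted p = 9.46e-04), and its log2 fold change in siQKI was -0.20 (adjusted p = 0.0800). The siQKI difference passed without siCtrl replicate 1 (adjusted p = 0.0381), siQKI replicate 2 (0.0443) or siRBFOX2 replicate 3 (0.0393), the last of which enters through the shared estimate of the spread. An annotated protein-coding gene on the same strand, AL121758.1 (646626 to 675800), covers nearly all of SRXN1. Whether its reads were kept apart is not given in the sources used here.

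AKR1B10 (GSHG0039966, chromosome 7, 134527567 to 134541412), an aldo-keto reductase that detoxifies reactive carbonyls and is among the genes most used to call NRF2 activity in carcinomas, was close to absent from PANC-1. It was listed at 0, 18.0 and 0 counts in siCtrl, 0, 31.4 and 9.44 in siQKI and 44.2, 14.5 and 0 in siRBFOX2. The groups overlap, and no difference passed (adjusted p = 0.632 in siQKI and 0.563 in siRBFOX2). Reads can be shared with AKR1B15, a near-identical neighbour that reached at most 27.98 counts in PANC-1 libraries.

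**Figure D2:**
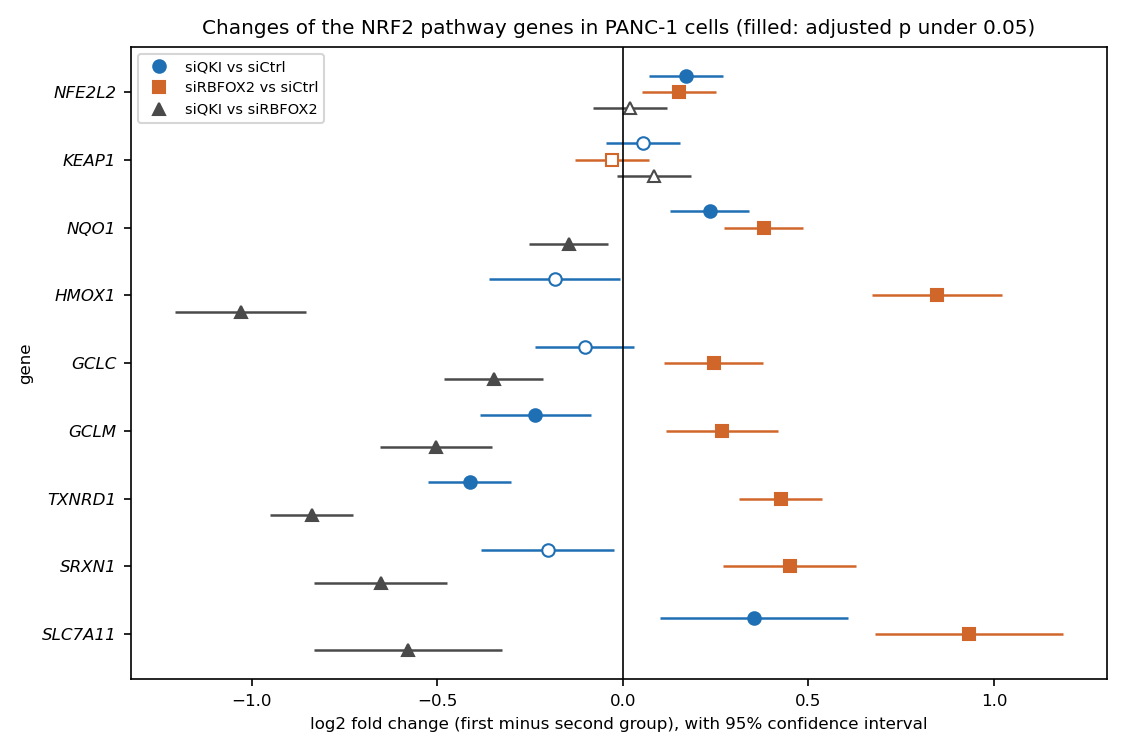
Log2 fold changes of 9 of the 10 genes in PANC-1 cells from the limma fit, with 95% confidence intervals (AKR1B10 is left out because it was near 0); circles are siQKI and squares siRBFOX2, each against siCtrl, triangles are siQKI against siRBFOX2, and filled symbols passed an adjusted p of 0.05. All filled squares lie above 0, between 0.15 and 0.93, whereas filled circles lie on both sides, and TXNRD1 and GCLM have a filled symbol on each side.

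The test of whether the knockdowns differ is their direct contrast, in which the controls enter through the shared estimate of the spread alone. Of the 10 genes 7 were lower in siQKI than in siRBFOX2, none was higher, and in each of the 7 the libraries of the 2 groups did not overlap. Over all genes tested 21.5% passed in this contrast (9.93% higher and 11.6% lower) and 18.1% were lower without overlap. The median log2 difference of the 10 genes was -0.43, beside 0.01 for all genes. HMOX1 differed most, by -1.03 (SE 0.0824, adjusted p = 5.27e-07), and TXNRD1 followed with -0.84 (SE 0.0525, adjusted p = 4.89e-08). SRXN1 (-0.65, adjusted p = 4.72e-05), SLC7A11 (-0.58, adjusted p = 0.00236), GCLM (-0.50, adjusted p = 1.03e-04) and GCLC (-0.35, adjusted p = 8.56e-04) came next. For the regulators no difference passed. NFE2L2 differed by 0.02 (95% confidence interval -0.08 to 0.12, adjusted p = 0.828) and KEAP1 by 0.08 (-0.02 to 0.18, adjusted p = 0.245). The difference in NQO1, -0.15 with an adjusted p of 0.0490, was lost when siCtrl replicate 2 (0.0574) or 3 (0.0519), siQKI replicate 1 (0.105), 2 (0.0536) or 3 (0.180), or siRBFOX2 replicate 1 (0.0798) or 3 (0.200) was left out.

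Among themselves the genes fell into a tight set and a looser rest, with AKR1B10 left out because its mean was under 50. Over the 9 PANC-1 libraries GCLC, GCLM, HMOX1, SRXN1 and TXNRD1 varied together, with Pearson correlations of log2 values from 0.923 (GCLC with GCLM) to 0.979 (GCLC with SRXN1). NQO1 was closest to SLC7A11 (0.855). NFE2L2 had values from -0.03 with TXNRD1 to 0.261 with HMOX1 for these 5 genes, and of 0.714 with NQO1 and 0.706 with SLC7A11. KEAP1 had its most negative value with TXNRD1 (-0.562). These are descriptions over 9 libraries that share 3 groups and their size factors, so they partly restate the differences between groups. An order within groups was shared too. In siCtrl every gene but AKR1B10 rose from replicate 1 to 2 and from 2 to 3. In siRBFOX2 replicate 3 was highest for KEAP1, NQO1, HMOX1, GCLC, GCLM, TXNRD1 and SRXN1, and in siQKI the highest replicate varied. Counts of passing genes are therefore not counts of independent results. Among 17877 genes with a mean of at least 50, the 5 with a pattern most like NFE2L2 over the same 9 libraries had r from 0.965 to 0.974, and those with a symbol were SEC24A (0.970) and ZNF815P (0.965). The summed counts of the 10 genes made up 0.134% to 0.1499% of a siCtrl library, 0.126% to 0.139% of a siQKI library and 0.187% to 0.208% of a siRBFOX2 library.

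The other genes of the pathway were taken as 7 lists with 70 genes, of which 66 could be tested. In siRBFOX2 24 of them rose, 7 fell and 35 did not pass, beside 12% higher and 14.5% lower among all genes tested, and their median log2 fold change was 0.11. In siQKI 17 rose, 14 fell and 35 did not pass, beside 14.9% and 18.1%, with a median of 0.01. In the direct contrast 24 were lower in siQKI, 9 were higher and 33 did not pass, beside 11.6% lower and 9.93% higher, with a median of -0.11. The counts of fallen genes in siQKI and siRBFOX2 and of higher genes in the direct contrast are near these shares. Single lists hold 4 to 14 tested genes, and differences between lists were not tested.

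**Figure D3:**
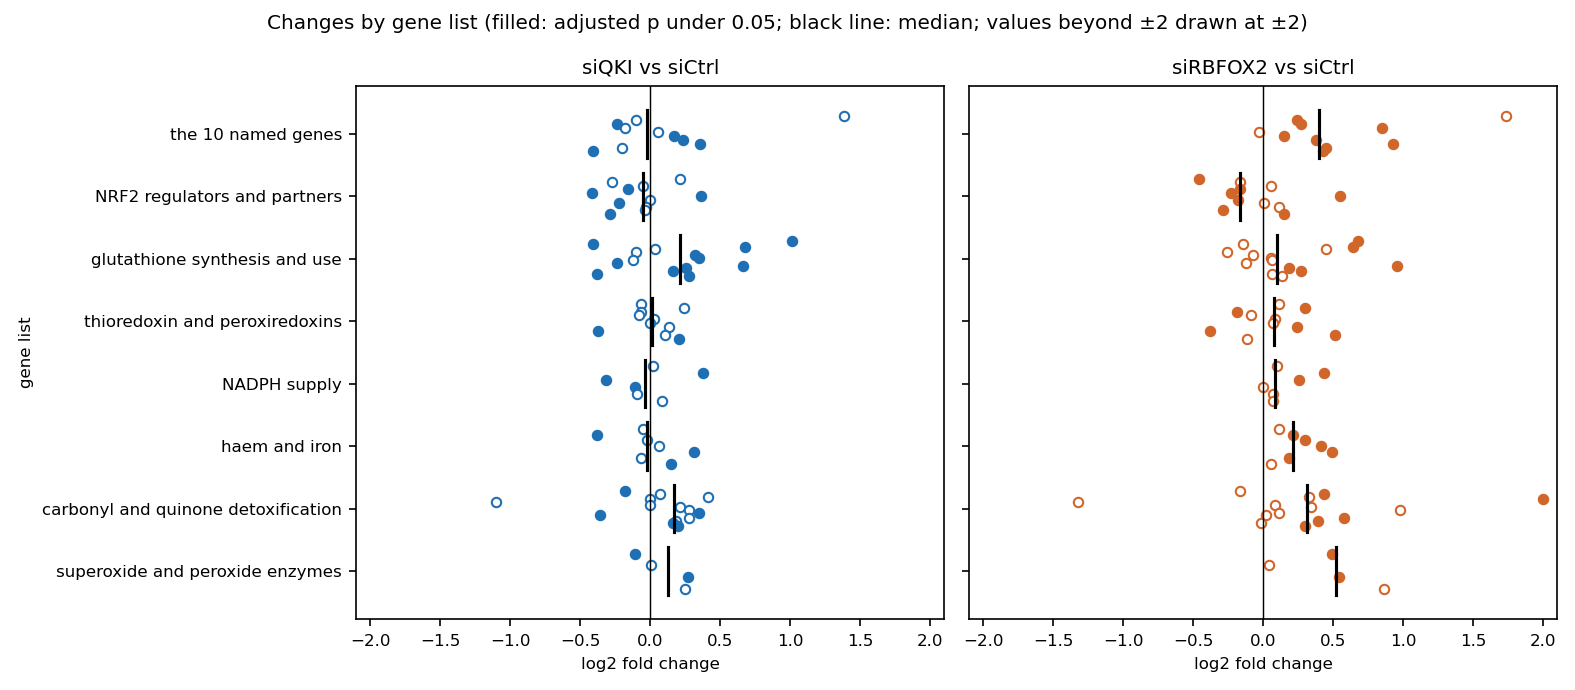
Log2 fold changes against siCtrl of the 10 genes and of 7 lists of other pathway genes, siQKI on the left and siRBFOX2 on the right; each circle is a gene, filled where the adjusted p is under 0.05, the black line is the median of a list, and values beyond 2 are drawn at 2 (AKR1C3 in siRBFOX2, at 5.75). AKR1C3 was at 0 in all siCtrl libraries, so the size of its change rests on the 1 added before taking log2. In siRBFOX2 the filled circles of the glutathione, NADPH, haem and iron, detoxification and superoxide lists all lie above 0, and most of those of the regulators lie below it.

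Among the regulators and partners of NRF2, siRBFOX2 cells had 2 genes that rose and 5 that fell of 11 tested. Of all genes tested 12% rose and 14.5% fell in siRBFOX2, and 14.9% rose and 18.1% fell in siQKI. The counts of risen regulators are near these shares in both knockdowns. MAFG, a small MAF protein that pairs with NRF2, rose by 0.55 on the log2 scale (SE 0.0467, adjusted p = 7.93e-07), while BACH1, the repressor that competes for the same element, fell by 0.46 (SE 0.105, adjusted p = 0.00409) and RBX1, the RING subunit of the CUL3 ligase, fell by 0.29 (adjusted p = 0.00144). In siQKI 1 rose and 4 fell, with MAFG up by 0.37 (adjusted p = 2.23e-05), MAFF, another small MAF, down by 0.42 (adjusted p = 1.12e-04) and NFE2L1, a relative of NRF2 that drives proteasome genes, down by 0.22 (adjusted p = 1.35e-04). BACH1 was 1.60-fold higher in siQKI than in siRBFOX2 (adjusted p = 2.39e-04). SQSTM1, the autophagy receptor that binds KEAP1, was lower in siQKI than in siRBFOX2 by 0.43 (adjusted p = 2.29e-05).

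Of the genes of glutathione synthesis and use, 14 were tested. In siRBFOX2 5 rose and none fell, beside 12% higher and 14.5% lower among all genes tested. In siQKI 8 rose and 3 fell, beside 14.9% and 18.1%. The exporters ABCC1 and ABCC3, which pump out glutathione conjugates, rose in both. ABCC1 rose by 1.01 in siQKI (adjusted p = 5.43e-10) and by 0.68 in siRBFOX2 (adjusted p = 7.94e-08), and ABCC3 by 0.68 (5.54e-07) and 0.64 (1.88e-06). ABCC1 was higher in siQKI than in siRBFOX2 by 0.34 (adjusted p = 7.61e-05), against the direction of the 7 antioxidant genes. GSTA4, which conjugates lipid aldehydes, rose by 0.96 in siRBFOX2 (adjusted p = 8.73e-06). GPX4, the peroxidase that reduces lipid peroxides in membranes, rose by 0.35 in siQKI (adjusted p = 6.94e-05), and GPX1 and GPX4 were both higher in siQKI than in siRBFOX2.

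Of 7 haem and iron genes tested 5 rose and none fell in siRBFOX2, beside 12% and 14.5% of all genes. In siQKI 2 rose and 1 fell, beside 14.9% and 18.1%. In the direct contrast 6 were lower in siQKI than in siRBFOX2, beside 11.6% of all genes. The ferritin chains FTL and FTH1, which store the iron that haem oxygenase releases, rose by 0.49 (adjusted p = 1.20e-05) and 0.42 (adjusted p = 1.23e-04) in siRBFOX2, and FECH, which inserts iron into protoporphyrin to make haem, by 0.30 (adjusted p = 8.96e-04). In siQKI FTL rose by 0.31 (adjusted p = 4.70e-04), TFRC, the receptor for iron-loaded transferrin, rose by 0.15 (adjusted p = 0.00447) and BLVRB, a biliverdin reductase, fell by 0.38 (adjusted p = 7.08e-04).

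In the thioredoxin and peroxiredoxin list 3 of 10 genes rose and 2 fell in siRBFOX2, with TXNIP, which binds and blocks thioredoxin, up by 0.51 (adjusted p = 0.00104) and the mitochondrial TXN2 down by 0.38 (adjusted p = 5.95e-04). In siQKI 1 rose and 1 fell, TXN2 being down by 0.37 (adjusted p = 4.33e-04). Of all genes tested 12% rose and 14.5% fell in siRBFOX2, and 14.9% rose and 18.1% fell in siQKI. Both siQKI counts and the falls in siRBFOX2 are near these shares. Among 6 genes that supply NADPH, IDH1 rose in both knockdowns, by 0.38 in siQKI (adjusted p = 1.11e-05) and by 0.43 in siRBFOX2 (adjusted p = 5.24e-06). ME1, malic enzyme, fell by 0.31 in siQKI (adjusted p = 0.00105) and rose by 0.26 in siRBFOX2 (adjusted p = 0.00653). The 2 knockdowns differed in ME1 by -0.57 (adjusted p = 1.07e-05), the same pattern as TXNRD1 and GCLM.

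Of the enzymes of carbonyl and quinone detoxification 5 of 14 rose and none fell in siRBFOX2, among them AKR1B1 by 0.43 (adjusted p = 1.85e-04), UGDH by 0.30 (adjusted p = 3.34e-05) and PIR, an iron-binding nuclear protein known as an NRF2 target, by 0.39 (adjusted p = 5.11e-04). In siQKI 3 rose and 2 fell, with EPHX1, the microsomal epoxide hydrolase, up by 0.35 (adjusted p = 1.07e-04) and NQO2 down by 0.36 (adjusted p = 2.21e-04). Of all genes tested 12% rose and 14.5% fell in siRBFOX2, and 14.9% rose and 18.1% fell in siQKI. Both siQKI counts of this list are near these shares. Catalase (CAT) and the mitochondrial superoxide dismutase SOD2 rose in siRBFOX2, by 0.49 (adjusted p = 4.45e-07) and 0.54 (adjusted p = 3.59e-06). SOD2 is listed in 1 entry with SOD2-OT1, whose reads cannot be told apart from it. In siQKI SOD2 rose by 0.27 (adjusted p = 0.00120), and the fall of CAT by 0.11 (adjusted p = 0.0479) was lost when any of 6 of the 9 libraries was left out, siCtrl replicates 2 and 3, the 3 siQKI libraries and siRBFOX2 replicate 1 (adjusted p = 0.0613 to 0.217).

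HPAF-II siCtrl libraries were set beside PANC-1 siCtrl libraries to ask how the antioxidant genes sit in a classical and a basal-like line. Values were brought to an equal total of 1000000 per library, and no test was run because the tables were normalized apart. AKR1B10 and SLC7A11 were higher in HPAF-II by at least 2-fold, HMOX1 and GCLM lower, and the other 6 genes were within 2-fold. Over the 24673 genes compared, 52.4% differed by at least 2-fold (27.2% higher and 25.2% lower in HPAF-II), so 4 of 10 genes is no more than the background. Of the 10 genes 3 were higher and 3 lower without overlap of libraries, where 63.7% of all genes compared did not overlap (32% higher and 31.7% lower).

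HMOX1 was the gene furthest below PANC-1. Its rescaled counts were 98.8, 106.9 and 120.1 in PANC-1 siCtrl and 1.39, 1.29 and 2.96 in HPAF-II, a mean of 108.6 ± 10.7 against 1.88 ± 0.936 (SD, n = 3) and a ratio of 57.4. HPAF-II replicate 3 was the highest of its group, and without it the log2 difference moved from -5.84 to -6.33. The ratio of HMOX1 to HMOX2, free of any scaling, was 4.15 ± 0.447 in PANC-1 siCtrl and 0.0629 ± 0.0281 in HPAF-II. HMOX2 itself was nearly level between the lines, at 26.2 ± 0.885 in PANC-1 and 29.5 ± 1.36 in HPAF-II.

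GCLM was at 51.8, 56.1 and 59.6 rescaled counts in PANC-1 and at 6.52, 7.72 and 7.43 in HPAF-II, 7.72-fold lower. Its partner GCLC was not lower, at 44.3, 45.1 and 50.5 in PANC-1 and 63.4, 65.6 and 48.1 in HPAF-II, ranges that overlap. The 2 subunits of the same enzyme thus stood in a ratio of 1.197 ± 0.0396 GCLM to GCLC counts in PANC-1 siCtrl and of 0.125 ± 0.0266 in HPAF-II (SD, n = 3). In the knockdowns that ratio was 1.09 ± 0.0753 (siQKI) and 1.22 ± 0.0800 (siRBFOX2), so neither knockdown approached the HPAF-II balance.

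SLC7A11 stood on the other side, at 4.72, 4.797 and 5.43 rescaled counts in PANC-1 and 31.6, 37.2 and 30.4 in HPAF-II, 6.62-fold higher. AKR1B10 was at 0, 0.0517 and 0 in PANC-1 and at 2.33, 2.73 and 3.03 in HPAF-II. Its log2 ratio of 6.64 rests on the pseudocount of 0.01 and was 4.58 with 0.1, and it was 8.08 without PANC-1 siCtrl replicate 2, the only control library with any AKR1B10 count. AKR1B15 was at 21.1 to 66.6 normalized counts in HPAF-II, against 653 to 862 for AKR1B10.

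**Figure D4:**
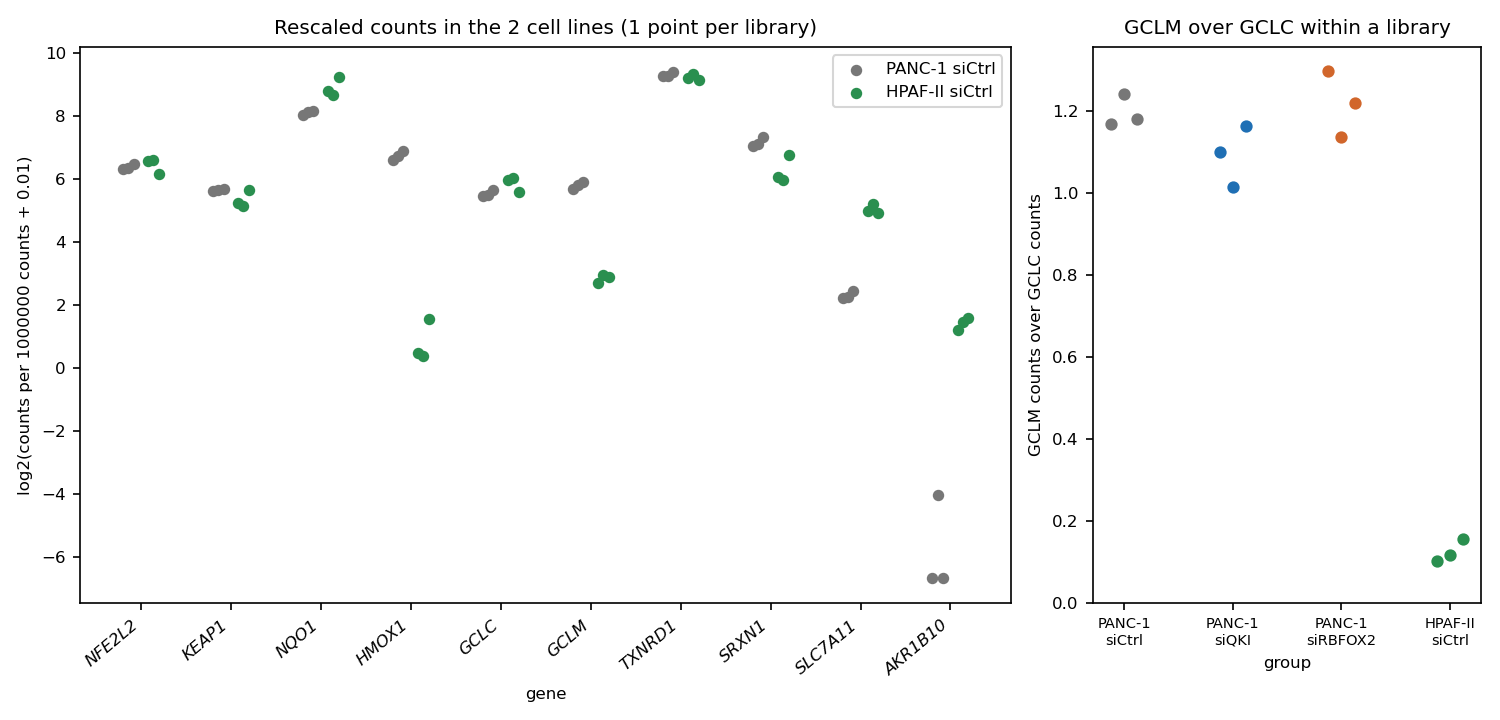
Left, rescaled counts of the 10 genes in the 3 PANC-1 siCtrl and the 3 HPAF-II siCtrl libraries on a log2 axis with 0.01 added, 1 point per library; right, the ratio of GCLM to GCLC counts in each of the 12 libraries by group. HMOX1 and GCLM lie lower and SLC7A11 and AKR1B10 higher in HPAF-II, and the GCLM to GCLC ratio is 0.103 to 0.155 in HPAF-II and at least 1.01 in every PANC-1 library.

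NQO1 and SRXN1 differed by less than 2-fold but without overlap. NQO1 was at 265, 283 and 288 in PANC-1 and 446, 408 and 609 in HPAF-II, a log2 ratio of 0.81. SRXN1 was at 134, 139 and 161 in PANC-1 and 66.6, 63.5 and 109 in HPAF-II, a log2 ratio of -0.86 that reached -1.15, beyond 2-fold, without HPAF-II replicate 3. That replicate was the highest HPAF-II library for HMOX1, NQO1, SRXN1, KEAP1 and AKR1B10 and the lowest for NFE2L2, GCLC, TXNRD1 and SLC7A11. TXNRD1 (603 ± 39.8 in HPAF-II and 636 ± 33.0 in PANC-1), NFE2L2 (88.2 ± 14.4 and 83.9 ± 4.67) and KEAP1 (41.3 ± 7.91 and 50.3 ± 0.917) had overlapping libraries. 

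Levels of different genes were compared per kilobase of exon (GENCODE v29), in rescaled counts. In PANC-1 siCtrl the order was TXNRD1 (126 ± 6.54), NQO1 (89.3 ± 3.90), HMOX1 (59.6 ± 5.90), SRXN1 (53.7 ± 5.14), NFE2L2 (18.5 ± 1.03), KEAP1 (15.9 ± 0.291), GCLM (11.4 ± 0.797), GCLC (7.32 ± 0.523), SLC7A11 (0.516 ± 0.0405) and AKR1B10 (0.0108 ± 0.0188). HMOX1 and SRXN1 were the neighbours in that order whose libraries overlapped. In HPAF-II NQO1 (156 ± 34.3) came before TXNRD1 (120 ± 7.89), and AKR1B10 (1.70 ± 0.220), GCLM (1.47 ± 0.127) and HMOX1 (1.03 ± 0.514) came last, with overlapping libraries among these 3.

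The other pathway genes also differed between the lines in both directions, with 21 of 70 at least 2-fold higher and 15 at least 2-fold lower in HPAF-II. Over all genes compared the shares were 27.2% and 25.2%, so these counts are close to the background. The detoxification list had 9 higher and 4 lower of 16. The following genes were chosen after their values were seen. AKR1C3, an aldo-keto reductase, was listed at 0 in all PANC-1 siCtrl libraries and at 138 to 159 in HPAF-II, and ALDH3A1, an aldehyde dehydrogenase, was at 0.0509 to 0.189 and 99.3 to 197. GPX2, the epithelial glutathione peroxidase, was at 341 to 443 in HPAF-II and reached 0.00861 in PANC-1. BACH1 was 5.25-fold higher in HPAF-II, at 20.2 to 27.98 beside 4.41 to 4.84. Members of the AKR1C family are similar in sequence, and some reads could be split among them.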

How the data were processed

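PolyA RNA of 12 libraries (4 groups of 3) was sequenced. Per the submitters' processing notes, the authors used STAR 2.7.5a, SAMtools, Picard, FastQC and DESeq2 with hg38, and genes follow the FAST DB annotation. The authors deposited signal values, which are counts per gene after division by size factors, estimated separately for the 9 PANC-1 and the 3 HPAF-II libraries. Every value was a whole multiple of a step per library, but 82.1% to 84.8% of values of 1 to 30 steps were multiples of 3. A step is therefore not a fragment, the depth in fragments is unknown, and no count model was used. Totals were 292248837 to 376192091 steps (PANC-1) and 226697015 to 309720537 (HPAF-II).

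Groups of PANC-1 libraries were tested in limma 3.58.1 (R 4.3.3, eBayes with trend, 1 fit of 9 libraries, two-sided) on log2(normalized count + 1), in 22544 genes whose mean reached 10. The Benjamini-Hochberg threshold was 0.05, over all genes tested. Fold changes are on that log2 scale, which understates changes of low genes. Values of the 2 lines were rescaled to a total of 1000000 and compared without a test, with a pseudocount of 0.01. Summaries and figures used Python 3.11.15, numpy 2.4.6, pandas 2.3.3 and matplotlib 3.10.9. The procedure was tested on simulated data.

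The 10 genes and the lists were chosen with earlier results of these data known. From each list, up to 3 genes per comparison were open to naming, those with the lowest adjusted p that passed and whose mean reached 50. Alternatives were other pseudocounts, filters and scalings, a fit of 2 groups, a replicate block, no trend, a fold minimum of 1.5 and each library left out.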

Additional observations from a re-analysis of the deposited data

Results flagged for a closer look

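A gene was flagged when it passed the limma test in opposite directions in the 2 knockdowns and also passed in the direct contrast. The direct contrast is thus part of the choice and not a separate test of it. TXNRD1 and GCLM met this rule, lower in siQKI and higher in siRBFOX2. The log2 difference of siQKI minus siRBFOX2 was -0.84 for TXNRD1 (95% confidence interval -0.95 to -0.73, adjusted p = 4.89e-08), with each siQKI library below each siRBFOX2 library. For GCLM it was -0.50 (-0.65 to -0.35, adjusted p = 1.03e-04), again without overlap. The controls lay between the knockdown groups for both genes. For GCLM the closest siQKI and control libraries were at 17546 and 17558. Its siQKI call was lost in 6 and its siRBFOX2 call in 3 of 18 alternatives.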

How the results depend on the processing

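Over 114 results and 1972 alternative values, 1860 kept their direction and side of the threshold or stayed within the limit set for them. With no mean-variance trend 2 of the 10 genes passed in siQKI and 5 in siRBFOX2. With a fold change of at least 1.5 added, 2035 genes and 0 of the 10 passed in siQKI, 1288 and 2 in siRBFOX2 and 977 and 3 in siQKI against siRBFOX2. Leaving out a library gave 3 to 6 of the 10 genes and 6217 to 7674 of all genes in siQKI, 6 to 8 and 4862 to 5956 in siRBFOX2, and 6 to 7 and 3903 to 4793 in the direct contrast. The siQKI count was 3 without siCtrl replicate 2 or siQKI replicate 3. The sign turned for KEAP1 in siRBFOX2 (0.0272 at equal totals, and -0.0555 to 0.0036 over the libraries left out) and, in the direct contrast, for AKR1B10 (-1.93 to 1.05 over the libraries left out) and NFE2L2 (-0.0057 to 0.0423), none of them called. Between the lines the NFE2L2 log2 ratio of 0.07 turned to -0.21 with the deposited values and to -0.0095 without HPAF-II replicate 2. For the other changes of call the cause was not tested.

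Same-numbered libraries of different groups did not deviate together over all genes (correlations of -0.0325 to 0.0235, beside -0.0333 to 0.0384 for other numbers). With 3 libraries per group this cannot exclude that the numbers pair them. With the replicate block 7336, 5891 and 4758 of all genes passed in siQKI, siRBFOX2 and the direct contrast. HMOX1 (adjusted p = 0.0406) and SRXN1 (0.0285) then also passed in siQKI, giving 7 of the 10 genes, and NQO1 no longer passed in the direct contrast (0.0548). Depth in fragments is unknown, so precision rests on 3 libraries per group.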

Other observations

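The ferritin chains FTH1 and FTL together took 1.39% to 1.501% of all counts in siCtrl libraries, 1.56% to 1.70% in siQKI and 1.95% to 2.18% in siRBFOX2, against 0.596% to 0.851% in HPAF-II. The ratio of FTL to FTH1 was 0.203 ± 0.0117 in siCtrl, 0.242 ± 0.0132 in siQKI, 0.214 ± 0.00765 in siRBFOX2 and 0.212 ± 0.0188 in HPAF-II (SD, n = 3). The 2 subunits of the cystine transporter stood in a ratio of SLC7A11 to SLC3A2 counts of 0.0308 ± 0.00170 in siCtrl, 0.0329 ± 0.00612 in siQKI, 0.0542 ± 0.00997 in siRBFOX2 and 0.298 ± 0.0926 in HPAF-II. SLC40A1, the iron exporter ferroportin, was listed at 0 in all PANC-1 siCtrl libraries and at 28.6 to 31.8 per 1000000 in HPAF-II. TXNIP, which blocks thioredoxin, was at 9.42 to 11.9 in PANC-1 siCtrl and at 209 to 231 in HPAF-II. NFE2L3, a relative of NFE2L2, was at 225 to 240 in PANC-1 siCtrl and at 11.8 to 18.0 in HPAF-II.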
